A study of Danio rerio with 4 samples.

Results

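The strong narrow CTCF peaks of the zebrafish embryo were 545 binding regions, selected on 2 deposited values of each peak: an authors' score of 1000 or more and a width below 500 bp. They were taken from chromosomes 1 to 25 without chromosomes 4, 18 and 22. They made up 1.93% of the 28259 peaks narrower than 500 bp on these 22 chromosomes (exact binomial 95% interval 1.77 to 2.10%, counting error only) and 1.45% of the 37625 peaks in the whole list. As score and width chose these peaks, both are given below as descriptions without a test.

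CTCF is a DNA-binding protein with a row of zinc fingers that reads a long sequence motif. In vertebrate cells it halts the loop-extruding cohesin ring, and pairs of bound sites mark the borders of many chromatin loops and domains. In mammals, sites with a good match to the motif tend to be bound strongly and in many cell types.

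Peaks came from ChIP-seq of whole 24 hpf embryos (hours post fertilisation) of the AB strain and the genotype labelled ctcf{HPSH}. The embryos were collected from fish with 1 HA-tagged and 1 wild-type ctcf allele and were pooled at 2000 per replicate, and whether they were sorted by genotype is not stated in the labels. The 2 ChIP libraries used an antibody against HA, and the 2 input DNA libraries came from embryos with the same label. The only list used was called on the combined ChIP replicates in danRer10 coordinates, so it holds no value per replicate, and the depth behind a score is unknown. In whole embryos, binding in more cells and stronger binding per cell cannot be told apart.

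Strong narrow peaks were 51.8% of the 1052 peaks scoring 1000 or more on these chromosomes. The other 507 were at least 500 bp wide. The widths of the strong narrow peaks ran from 244 to 498 bp, with a median of 360 bp and quartiles of 316 and 418 bp. The other narrow peaks had a median width of 251 bp. Of narrow peaks under 300 bp wide, 84 of 20564 were strong (0.408%), against 79 of 982 at 450 to 499 bp (8.04%). The median score was 1148, with quartiles of 1064 and 1327. Of the 545, 204 scored below 1100, 263 scored 1100 to 1499, 78 scored 1500 or more and 21 scored 2000 or more. Score and width were nearly unrelated among the members (Spearman's rho = 0.0842 across peaks, which share their libraries). The rule had cut the range of both, so this value does not describe narrow peaks in general.

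The threshold cuts a continuous range. Of the 5 members just inside it, 4 scored 1000, on chromosomes 7, 11, 14 and 19, and 1 on chromosome 2 (52485134 to 52485459) scored 1001. Of the 5 narrow peaks just outside it, those on chromosome 20 (9212165 to 9212465) and chromosome 24 (36911145 to 36911515) scored 999 each and those on chromosomes 2, 8 and 16 scored 998. There were 114 narrow peaks with scores of 1000 to 1049 and 152 with scores of 950 to 999. At the width limit, 38 strong peaks were 475 to 499 bp wide and 30 were 500 to 524 bp wide.

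The highest score of a strong narrow peak was 3486, on chromosome 1 (58785283 to 58785681, 399 bp wide), 79.8 kb from the end of that chromosome's last peak. The next was 3309 on chromosome 11 (17432922 to 17433415). Its summit, the position of the peak's highest signal, lay 33.5 bp from the centre. The third, 3142 on chromosome 20 (55337893 to 55338213), was the last peak of its chromosome. Chromosome 10 held the next pair, with scores of 2862 (16842627 to 16842976) and 2561 (2529118 to 2529451). The summits of this pair lay 1.5 and 0.5 bp from their centres. The remaining 5 of the 10 highest scores were 2525 on chromosome 17 (53292558 to 53292934), 2506 on chromosome 14 (19802734 to 19803136), 2339 on chromosome 2 (3640623 to 3641084), 2312 on chromosome 11 (41155512 to 41155908) and 2299 on chromosome 23 (43595135 to 43595448). In each of these 10 the nearest other peak scored below 1000, from 243 to 823. The genes and sequences at these positions were not analysed here.

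To set strong narrow peaks beside peaks of the same widths, each was ranked among the peaks of its own chromosome that scored below 1000, were narrower than 500 bp and differed from it in width by at most 25 bp. There were 12 to 513 such peaks for each member, with a median of 93. A rank of 50% means that a member exceeded as many of them as it fell below. Ranks were averaged per chromosome and set against 50% by flipping the signs of the 22 chromosomes' departures at random (permutation test, two-sided), with Benjamini-Hochberg adjustment over 7 results. Levels of the lower-scoring peaks are given with each weighted to match the members' widths, under which the mean width was 365 bp against 368 bp for the members. The test describes where the peaks of this one list lie and does not measure the spread between embryos.

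Summits of strong narrow peaks lay closer to the peak's centre than those of lower-scoring peaks of the same widths. The median displacement of the summit from the centre was 4.25% of the width (quartiles 1.77 and 7.94%), or 15 bp, against 8.03% (quartiles 3.28 and 16.1%), or 27 bp. The mean rank of the displacement was 28.5 ± 3.77% (SD, n = 22 chromosomes) and was below 50% on 22 of 22 chromosomes (permutation p = 1e-05, the smallest that the resamples can give, adjusted p = 7e-05). It ran from 19.3% on chromosome 17 to 33.4% on chromosome 24. Summits within 10 bp of the centre were found in 225 of the 545 strong narrow peaks (41.3%, exact 95% interval 37.1 to 45.5%), against 24.4% of lower-scoring peaks. All but 3 members had summits displaced by at most 20% of the width, a limit that 84.1% of the lower-scoring peaks met.

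Summit centring followed the score in steps below the threshold and levelled off near it. Weighted to the members' widths, the median displacement was 16.2% of the width for scores under 300, 8.49% for 300 to 499, 5.69% for 500 to 749 and 4.42% for 750 to 999. Within the strong narrow peaks it was 4.16% for scores of 1000 to 1099, 4.51% for 1100 to 1499 and 4.04% for 1500 or more. Centring was therefore not particular to scores of 1000 or more. Among the members, score and displacement were nearly unrelated (rho = -0.0364 across peaks). Against peaks scoring 500 to 999 alone the mean rank was 40.0 ± 5.39% (SD, n = 22 chromosomes), still with an adjusted p of 7e-05 (permutation test). Score and summit are read from the same pooled signal, and the part of read number in this relation was not tested.

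**Figure D1:**
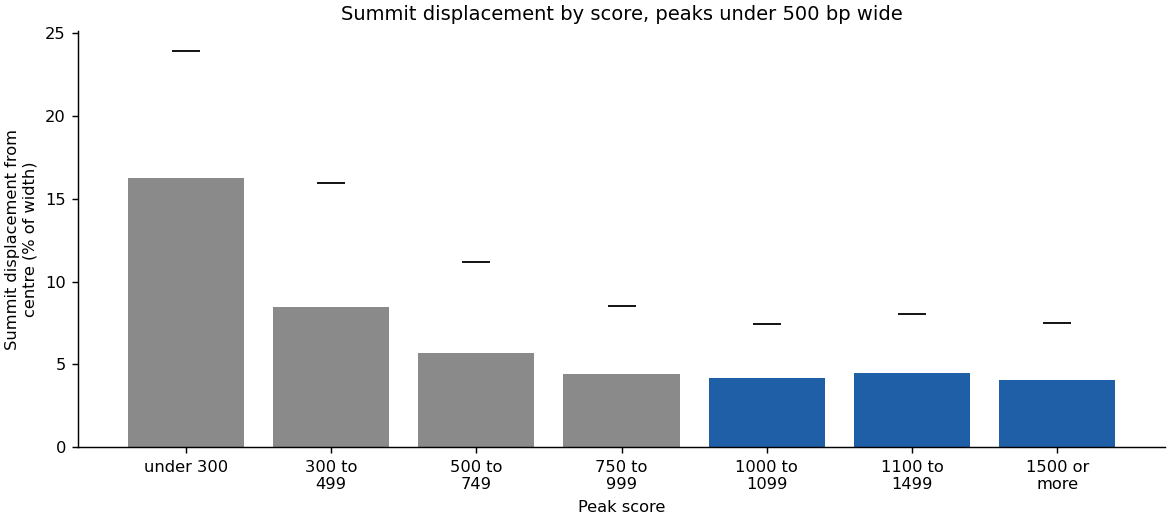
Summit displacement from the peak's centre, in percent of the peak's width, by score for peaks narrower than 500 bp on 22 chromosomes. Bars give medians and dashes upper quartiles; grey bars are lower-scoring peaks weighted to the members' widths and blue bars are strong narrow peaks. The median falls from 16.2% for scores under 300 to 4.42% for 750 to 999 and stays between 4.04 and 4.51% above.

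The centring differed with width. Strong narrow peaks of 300 to 349 bp were the most centred, with a median displacement of 2.03% of the width, against 3.99% for lower-scoring peaks of that class. At 450 to 499 bp the medians were 11.7 and 18.8%. The members' median was lower than that of lower-scoring peaks in each of the 5 width classes, the narrowest class (200 to 299 bp) giving 4.04 against 5.97%. Widths were not matched within a class, and in the narrowest class the members started at 244 bp. Width and displacement had a rho of 0.430 across members. The 3 most off-centre summits of the members belonged to a peak on chromosome 7 (52742815 to 52743305) with a displacement of 25.7% of its width and to 2 peaks on chromosome 15 (510007 to 510491 and 12065051 to 12065299) with 22.7 and 21.3%. Summits showed little preference for a side: 286 lay to the left of the centre, 253 to the right and 6 at it. For the 109 members with an off-centre summit and another peak within 2 kb, the summit lay on that neighbour's side in 52 (47.7%, exact 95% interval 38.1 to 57.5%).

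The nearest neighbours of strong narrow peaks scored somewhat higher than those of lower-scoring peaks of the same widths. The peak nearest to a strong narrow peak had a median score of 406 (quartiles 291 and 609), against 367 (quartiles 273 and 523) for the peak nearest to a lower-scoring one. The mean rank was 55.1 ± 5.14% (SD, n = 22 chromosomes) and was above 50% on 17 of 22 chromosomes (permutation p = 0.00029, adjusted p = 0.00101). Chromosome 1 had the lowest rank, 43.4%, and chromosome 8 the highest, 62.1%. The call was lost among peaks more than 5 Mb from an end (54.4 ± 9.73%, adjusted p = 0.10, permutation test, 321 members). It was also lost with a threshold of 1200 (54.3%, adjusted p = 0.186, permutation test, 217 members). In both the mean rank stayed above 50%. The call was kept under the other 8 of 10 alternatives. Among these were comparison peaks within 1.5-fold of the member's distance from the end (54.8%, adjusted p = 0.0154, permutation test, 462 members). Members with fewer than 5 such comparison peaks were left out there, and how many of them lay near an end was not counted. Comparison peaks scoring 500 to 999 gave 53.8% (adjusted p = 0.00969, permutation test). The neighbour's median score rose with a peak's own score already below the threshold, from 356 for scores under 300 to 390 for 750 to 999, weighted to the members' widths. It was 392.5 for members scoring 1000 to 1099, 392 for 1100 to 1499 and 444.5 for the 78 scoring 1500 or more. Across members, own score and the neighbour's score were unrelated (rho = 0.00115). By width, without matching within a class, the members' median neighbour score was above that of lower-scoring peaks in 4 of 5 classes. At 400 to 449 bp it was below (354 against 369).

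The nearest peak was itself strong for 38 members (6.97%, exact 95% interval 4.98 to 9.44%, counting members as independent), against 3.07% of lower-scoring peaks. In 22 of them it was at least 500 bp wide (4.04% of members, against 1.56%), and in 16 it was another strong narrow peak (2.94%, against 1.52%). The last difference averaged 1.14 ± 4.16 percentage points (SD, n = 22 chromosomes) and did not pass the test (permutation p = 0.220, adjusted p = 0.257). It was positive on 7 chromosomes, the largest being 10.9 points on chromosome 19, and negative on 15. All 16 such members lay on those 7 chromosomes. On the other 15 the difference was thus only the comparison share with a minus sign, and the split of 7 and 15 shows no direction. Without the peaks below the list's median score of 369 it was 3.93 ± 6.19 points (adjusted p = 0.0171, permutation test). It was on the other side of 0 with a threshold of 1200 (-0.236 points) and among peaks more than 5 Mb from an end (-0.516 points). Neither passed the test (adjusted p = 0.845 and 0.61, permutation test). With no difference such values would lie slightly below 0, as a member is not its own neighbour. The differences for wide strong neighbours and for strong neighbours of any width were not tested.

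The 545 strong narrow peaks were spread over 1173 Mb, so wide spacing follows from their number. The values in this paragraph have no comparison set beside them. The 523 intervals between consecutive ones had a median of 1.10 Mb (quartiles 0.295 and 3.08 Mb), the longest being 18.6 Mb. A median of 36 other peaks lay between them (quartiles 13 and 78), and 18 consecutive pairs had no other peak between. Intervals of at most 10 kb numbered 13 and intervals over 5 Mb numbered 71. When members within 100 kb of the next were joined, 428 stood alone, 32 groups had 2 members, 15 had 3 and 2 had 4.

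The distance from a strong narrow peak to the nearest other one ranked below that from lower-scoring peaks of the same widths, a call that several alternatives ended. The median distance between centres was 478 kb for strong narrow peaks (quartiles 123 and 1319 kb) and 630 kb for lower-scoring peaks (quartiles 202 and 1556 kb). The mean rank of this distance was 45.2 ± 8.16% (SD, n = 22 chromosomes), below 50% on 17 of 22 chromosomes (permutation p = 0.0132, adjusted p = 0.0308). A member is not its own neighbour, so it has fewer possible strong narrow neighbours on its chromosome than a lower-scoring peak has. With no difference this rank would thus lie somewhat above 50%, more so with fewer members. Another strong narrow peak lay within 100 kb of 117 members (21.5%, exact 95% interval 18.1 to 25.2%), against 15.1% of lower-scoring peaks, and within 10 kb of 24 (4.40%, against 2.04%). The interval counts members as independent, although members near each other enter it together, so it is too narrow. Within 1000 kb the shares were 69.5 and 62.8%.

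The median of this distance fell with the score already below the threshold. Weighted to the members' widths, with the 22 chromosomes pooled, it was 784131 bp for scores under 300 and 685628 bp for 300 to 499. It was 651672 bp for 500 to 749 and 564280 bp for 750 to 999. For members it was 568230 bp at scores of 1000 to 1099, 475778 bp at 1100 to 1499 and 377585 bp at 1500 or more. These medians were not compared within a chromosome, and the part of chromosome in the fall was not tested. Against peaks scoring 500 to 999 alone the mean rank was 46.7% and no longer called (adjusted p = 0.106, permutation test), and with a width limit of 400 bp it was 47.6% (adjusted p = 0.315, permutation test). Against peaks that also lay within 1.5-fold of the member's distance from the end, the mean rank was 51.1 ± 10.8% (SD, n = 22 chromosomes; adjusted p = 0.758, permutation test, 462 members). That lies above 50%, as would the value with no difference, so no change of direction can be read from it. Here too, members with fewer than 5 comparison peaks were left out. Among peaks more than 5 Mb from an end the mean rank was 48.1% (adjusted p = 0.707, permutation test, 321 members). The call also ended without chromosome 8 (45.5%), chromosome 14 (45.9%) or chromosome 25 (45.7%), with adjusted p between 0.0501 and 0.0541 by permutation. With a threshold of 1200 the rank was 51.3% (adjusted p = 0.796, permutation test, 217 members). No change of direction can be read from this value either. The part of position along the chromosome was not tested apart from the smaller number of members.

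The 5 closest pairs of strong narrow peaks were shorter than 2400 bp between centres. The closest lay on chromosome 19, where peaks scoring 1410 (48357746 to 48358086) and 1043 (48358489 to 48358934) were 795.5 bp apart, with 402 bp between their edges. On chromosome 14 peaks scoring 1022 (1411156 to 1411437) and 1263 (1412064 to 1412408) were 939.5 bp apart. The last peak of chromosome 20, with the score of 3142 given above, lay 1939.5 bp from one scoring 1430 (55335873 to 55336354). Far from an end, the peak of chromosome 10 scoring 2862 lay 2162 bp from one scoring 1451 (16840481 to 16840798). The fifth pair was on chromosome 25, with scores of 1011 (877288 to 877608) and 1097 (879658 to 880020), 2391 bp apart. Of these 5 pairs, 4 lay within 2 Mb of an end, where 26.1% of all members lay. Pairs picked as the closest are too few to compare with that share.

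Distances to the nearest weaker peak, one scoring below 1000 at any width, showed no difference that passed the test. The median was 8336 bp from a strong narrow peak (quartiles 2820 and 19726 bp) and 7595 bp from a lower-scoring peak (quartiles 2160 and 20107 bp). The mean rank was 51.9 ± 4.48% (SD, n = 22 chromosomes; above 50% on 14; permutation p = 0.0593, adjusted p = 0.0830). A weaker peak lay within 2 kb of 103 members (18.9%, exact 95% interval 15.7 to 22.4%), against 23.8% of lower-scoring peaks, a difference that was not tested by itself. Within 50 kb the shares were 93.2 and 92.4%. Among peaks more than 5 Mb from an end the rank was 53.9 ± 6.48% (SD) and passed the test (adjusted p = 0.0283, permutation test). It also passed without chromosome 10 (52.2%, adjusted p = 0.0462) or chromosome 11 (52.2%, adjusted p = 0.0409), by permutation. The direction turned with a threshold of 1200 (48.9%, adjusted p = 0.796, permutation test) and among peaks at or above the list's median score (48.9%, adjusted p = 0.456, permutation test). A threshold of 800 (52.3%) and all 25 chromosomes (52.5%) gave adjusted p of 0.0120 and 0.0316 by permutation.

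**Figure D2:**
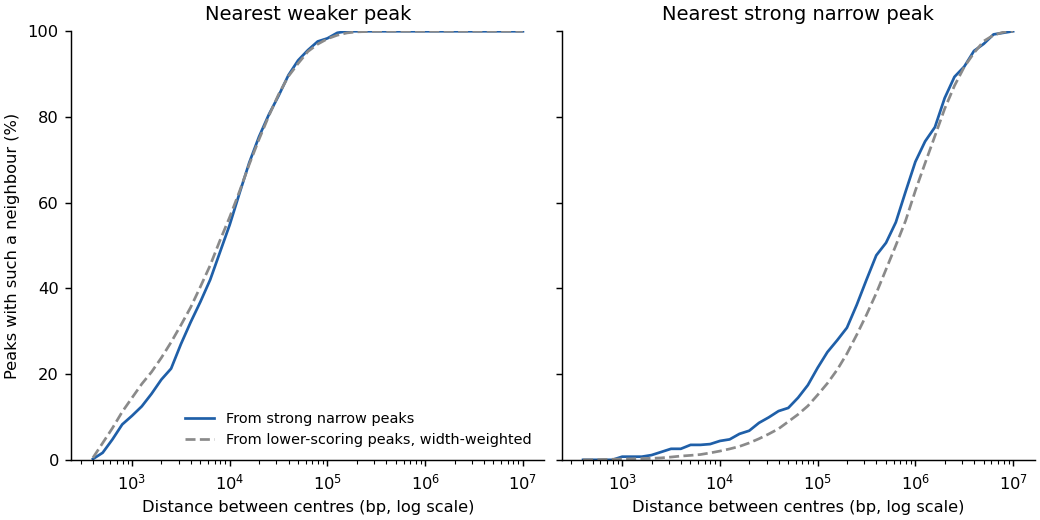
Percentage of peaks whose nearest weaker peak (left) or nearest other strong narrow peak (right) lies within the distance on the x axis, in bp between centres on a log scale, for strong narrow peaks (solid) and lower-scoring peaks weighted to the same widths (dashed). On the left the solid curve runs below the dashed one at short range, with 18.9 and 23.8% at 2 kb, and on the right above it, with 21.5 and 15.1% at 100 kb.

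The number of other peaks within 50 kb either side had a median of 4 in both sets (quartiles 2 and 7 for members, 2 and 6 for lower-scoring peaks). The mean rank was 51.1 ± 6.23% (SD, n = 22 chromosomes; permutation p = 0.430, adjusted p = 0.430). It reached 65.7% on chromosome 14 and fell to 40.6% on chromosome 20. A peak-free 50 kb on both sides was found for 33 members (6.06%), against 7.29% of lower-scoring peaks. The 5 most isolated members, on chromosomes 7, 6, 10, 9 and 21, lay 134, 121, 119, 112 and 110 kb from any other peak and scored 1141, 1416, 1016, 1138 and 1384. Each lay more than 6 Mb from an end, the median over all members being 7.25 Mb.

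Strong narrow peaks lay somewhat closer to chromosome ends. An end was base 1 or the end of the chromosome's last peak, since no danRer10 lengths were read. The median distance was 7.25 Mb (quartiles 1.84 and 16.3 Mb), against 8.13 Mb (quartiles 2.89 and 16.1 Mb) for lower-scoring peaks. Within 2 Mb of an end lay 142 members (26.1%, exact 95% interval 22.4 to 30.0%), against 19.1%. The interval counts members as independent, although members near each other enter it together, and this difference was not tested by itself. The mean rank was 46.4 ± 6.62% (SD, n = 22 chromosomes), below 50% on 16 of 22 chromosomes (permutation p = 0.0197, adjusted p = 0.0345). It ran from 33.9% on chromosome 15 to 59.5% on chromosome 17. That scores are higher near ends in this list was known beforehand, so this is no independent result.

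The call on closeness to ends was not stable. It ended against peaks scoring 500 to 999 alone (49.4%, adjusted p = 0.746, permutation test) and with the last peak of each chromosome left out (46.8%, adjusted p = 0.0551, permutation test). It also ended when any 1 of 9 chromosomes (2, 8, 9, 12, 14, 15, 16, 21 or 25) was left out, with mean ranks of 46.5 to 47.0% and adjusted p of 0.0501 to 0.0699 by permutation. The share within 2 Mb of an end rose with the score already below the threshold, from 15.3% for scores under 300 to 22.8% for 750 to 999, weighted to the members' widths. It was 28.4% for members scoring 1000 to 1099 and 21.8% for those scoring 1500 or more.

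Without matching for width, the share of narrow peaks that were strong was highest in the outer 2 Mb. That share also differed with width, from 0.408% under 300 bp to 8.04% at 450 to 499 bp. The part of width in the shares below was not tested, and their intervals count peaks as independent. Of narrow peaks within 0.5 Mb of an end, 58 of 1615 were strong (3.59%, exact 95% interval 2.74 to 4.62%), at 0.5 to 1 Mb 32 of 1161 (2.76%, 1.89 to 3.87%), and at 1 to 2 Mb 52 of 1808 (2.88%, 2.16 to 3.75%). From 2 Mb inward the share was between 1.59 and 1.80%. Both ends took part, with 68 members in the first 2 Mb of their chromosomes and 74 in the last. Of the 22 chromosomes, 19 had members at both ends. Chromosome 14 had the most in its outer 2 Mb, 14 of its 37 members, and chromosome 8 the fewest, 1 of 18. Chromosome 9, with 7 of 16, had a larger share there than chromosome 14. Strong narrow peaks made up 1.70% of the 32075 peaks of any width on these chromosomes. They were the first peak of 1 chromosome. Of the 22 last peaks, 4 were strong narrow ones and 1 was strong but at least 500 bp wide. The 4 strong narrow ones lay on chromosomes 9, 14, 20 and 23 and scored 1931, 1080, 3142 and 1244. These 4 define the end from which they were measured. The member next nearest to an end, at 2.10 kb, was the strong narrow peak closest to the last peak of chromosome 20.

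**Figure D3:**
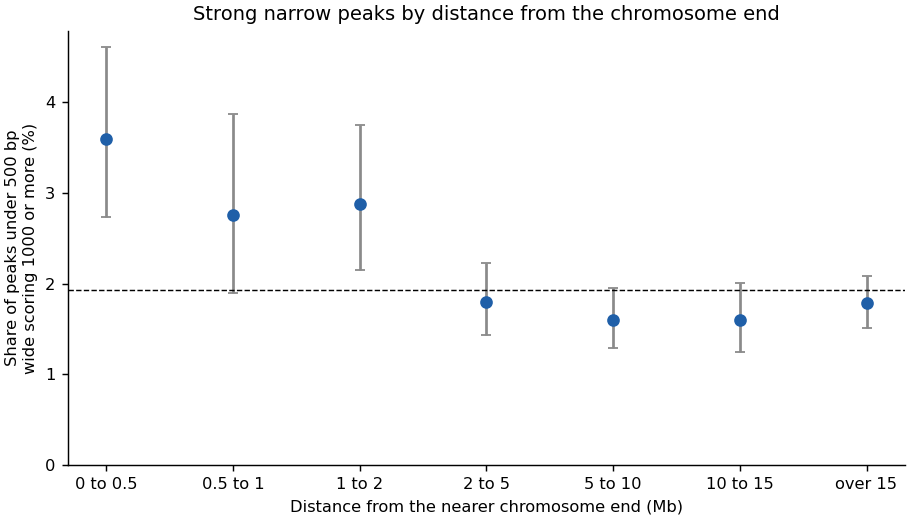
Percentage of peaks narrower than 500 bp that scored 1000 or more, by distance from the nearer chromosome end in Mb, on 22 chromosomes, without matching for width. Points carry exact binomial 95% intervals and the dashed line is the share over all distances, 1.93%; the share is 3.59% in the outermost class and at most 1.80% beyond 2 Mb.

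Chromosomes held between 16 and 37 strong narrow peaks, with a mean of 24.8 ± 6.05 (SD, n = 22 chromosomes) or 0.473 ± 0.123 per Mb. Chromosome 14 had the most, 37 of its 1106 narrow peaks (3.35%, exact 95% interval 2.37 to 4.58%), followed by chromosome 3 with 34 and chromosome 5 with 33. Chromosomes 9 and 25 had the fewest, 16 each (1.42 and 1.34%). Chromosome 16, with the most narrow peaks (1581), had 18 strong ones (1.14%, 0.676 to 1.79%). Intervals for chromosomes 14 and 16 were the only 2 of 22 that did not hold the overall 1.93%.

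Counts were also set against the widths on each chromosome. If peaks of each 25 bp width class were strong at the rate of all 22 chromosomes, chromosome 14 would have had 22.2 strong narrow peaks, and its 37 were 1.66 times that number (exact Poisson 95% interval 1.17 to 2.29). Chromosome 16 had 0.616 times (0.365 to 0.974) and chromosome 1 had 0.617 times (0.359 to 0.988). The other 19 intervals held 1. Since the score chose the members, these ratios are descriptions, and 22 intervals were looked at. The intervals count members as independent.

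**Figure D4:**
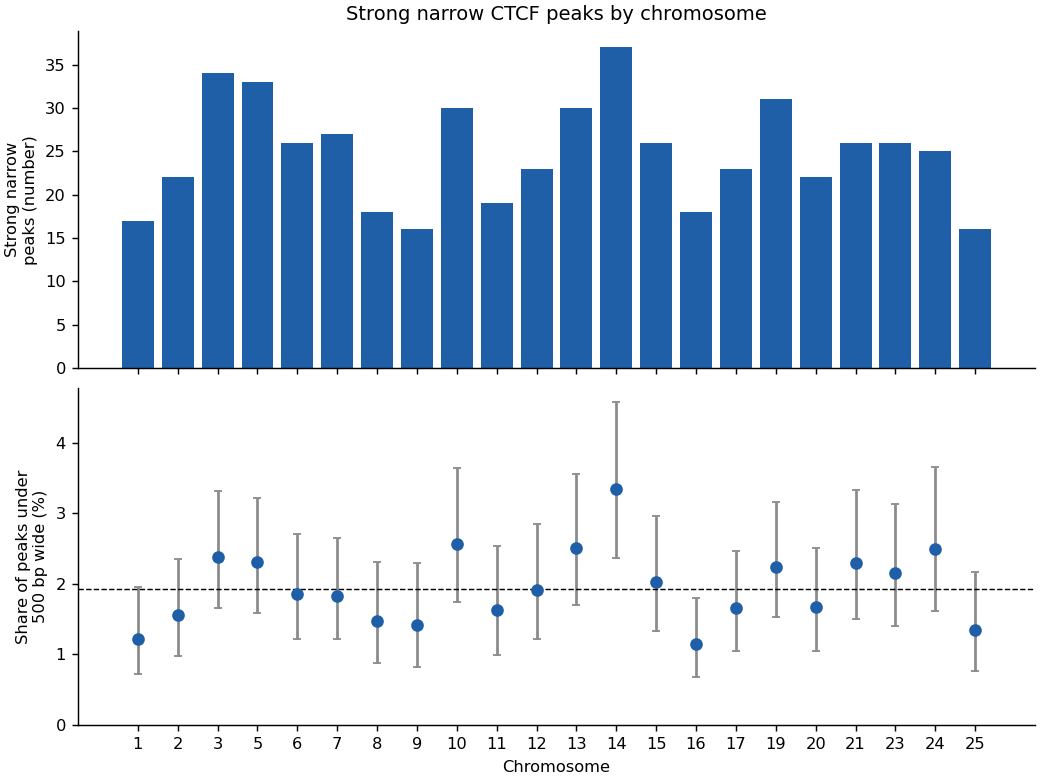
Number of strong narrow peaks per chromosome (top) and their percentage of all peaks narrower than 500 bp with exact binomial 95% intervals (bottom), for 22 chromosomes; the dashed line marks the overall 1.93%. Chromosome 14 stands highest at 37 peaks and 3.35%, and chromosome 16 lowest in percentage at 1.14%.

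Of the 37 strong narrow peaks of chromosome 14, its first and second megabase held 6 each, among 86 and 45 narrow peaks, and most lay elsewhere. The first megabase of chromosome 12 also held 6, among 67. No 1 Mb window held more than 6, and 5 windows held 5. On chromosome 13 only 2 of 30 members lay within 2 Mb of an end, and the mean rank of the distance to the nearest strong narrow peak was the highest, 64.4%. On chromosome 14 that rank was the lowest, 31.4%. On chromosome 8, with 1 of 18 members within 2 Mb of an end, it was 40.5%. A link between members near an end and this rank was not tested. The median score of members ran only from 1085 on chromosome 12 to 1237 on chromosome 1.

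**Figure D5:**
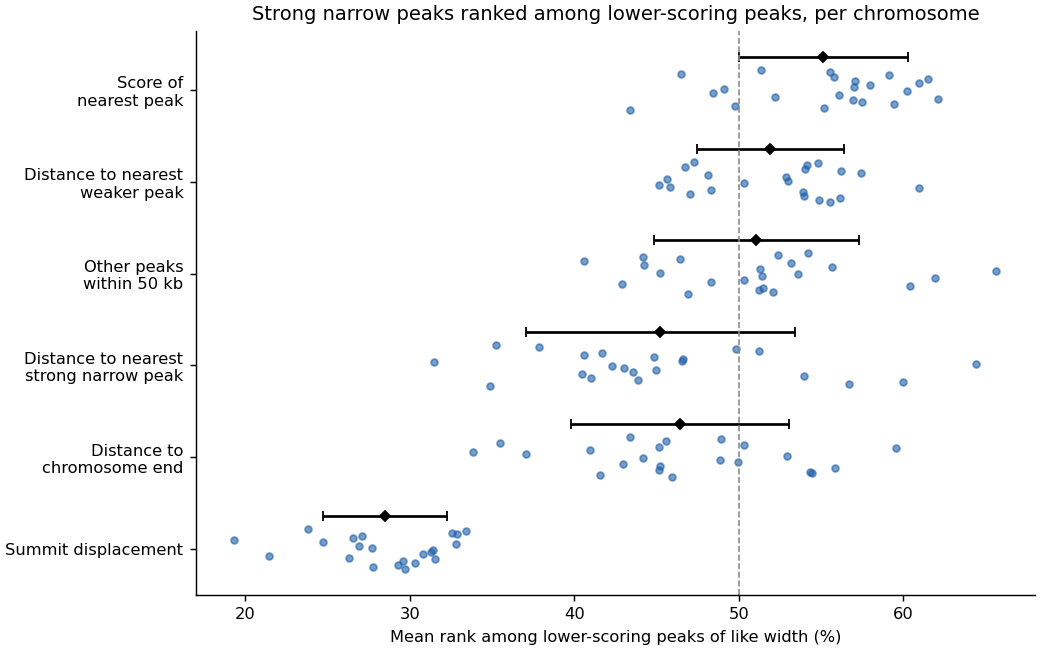
Mean rank of strong narrow peaks among lower-scoring peaks of like width on the same chromosome, in percent, for 6 measures. Each blue point is 1 of 22 chromosomes, diamonds with bars are the mean ± SD and the dashed line is 50%; all 22 points for summit displacement lie below 50%, between 19.3 and 33.4%, whereas points of the other measures lie on both sides.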

How the data were processed

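Per the file headers, the deposited list is in narrowPeak format and holds peaks of the combined replicates. The deposited score of each peak is the authors' whole number from 88 to 11089, of unstated scale, so it was ranked and no fold was taken. Starts, ends and summits are the authors' coordinates, printed 1-based. Signal, p and q are 0 throughout and were not used. The submitters' processing notes name, without roles, the build danRer10 and the tools MACS2, Bowtie2 2.2.5, cutadapt 1.3, Picard 1.45, SAMtools 1.1, deepTools 3.0.1, FastQC 0.9.3 and CASAVA. For the calling threshold and the use of input, the sources used here give nothing.

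Distances were taken between centres. Exact intervals of shares and counts treat peaks as independent and give counting error only. Sign-flip permutation tests over chromosomes used 100000 resamples and 0.05 as the threshold for adjusted p. They were also run on labels drawn at random or with known effects, which did not measure how often they call falsely. Members, tests and lists were chosen with earlier results of these data known. Score bands, width classes, end classes and windows were added after their values were seen. Peaks were named by rank (10 highest scores, 5 closest pairs, 5 nearest an end, 5 most isolated, 3 most off-centre, and those beside the threshold). Gene tables of another assembly were not used. Python 3.11.15, numpy 2.4.6, scipy 1.17.1, pandas 2.3.3 and matplotlib 3.10.9 were used.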

Additional observations from a re-analysis of the deposited data

Results flagged for a closer look

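Peaks meeting the same limits of score and width also occurred in sequence that the comparisons left out, which is why they are listed here. Unplaced scaffolds held 32 of them on 29 scaffolds, 3.54% of 905 narrow peaks (exact 95% interval 2.43 to 4.96%), with a highest score of 3664 and a median summit displacement of 3.10% of the width. Chromosome 4 held 21 (2.14%), chromosome 18 held 24 (1.59%) and chromosome 22 held 42 of 1399 (3.0%, 2.17 to 4.04%).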

How the results depend on the processing

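Summit displacement kept its direction and its call under all 10 alternatives and without any 1 chromosome, with mean ranks of 27.2 to 40.0%. Of 71 alternatives of the 7 tests, 46 kept direction and side of the threshold, as did 140 of the 154 results with 1 chromosome left out. In mean ranks unless stated, a threshold of 800 (1538 members) gave 52.3% for the nearest weaker peak, now past the threshold. A threshold of 1200 (217 members) gave 48.9% for the nearest weaker and 51.3% for the nearest strong narrow peak, both turned, -0.236 percentage points for strong narrow neighbours, also turned, and 54.3% for the neighbour's score and 47.4% for the end, both no longer called. Turned means only the other side of 50%, or of 0 for strong narrow neighbours. For those neighbours and the nearest strong narrow peak, these are not the exact values with no difference, as stated above. A width limit of 400 bp gave 47.6% for the nearest strong narrow peak and 46.7% for the end, and a width window of 10 bp gave 46.8% for the end, none of them called. Against scores of 500 or more these were 46.7% and, for the end, 49.4%, not called. More than 5 Mb from an end, the nearest weaker peak (53.9%) was called, the nearest strong narrow peak (48.1%) and the neighbour's score (54.4%) were not, and strong narrow neighbours (-0.516 points), peaks within 50 kb (49.2%) and the end (50.7%) turned. All 25 chromosomes gave 52.5% for the nearest weaker peak, called. Keeping peaks at or above the median score gave 48.9% for the nearest weaker peak, turned, 3.93 points for strong narrow neighbours, called, and 48.7% for the end, not called. Peaks within 10 kb ranked at 49.97%, turned. Chosen after seeing the data, comparison within 1.5-fold of the distance from the end gave 51.1% for the nearest strong narrow peak, turned. For the end it gave 49.1%, but this matching holds that rank near 50% by construction, so it cannot test the call. That value is still counted among the 71 alternatives. This matching left out members with fewer than 5 comparison peaks. Leaving out each chromosome's last peak, also chosen after seeing the data, gave 46.8% for the end, not called. The causes were not tested. With each chromosome left out in turn, ranks ran from 51.5 to 52.2% for the nearest weaker peak, 44.3 to 45.9% for the nearest strong narrow peak and 45.8 to 47.0% for the end. No paired analysis was possible because replicates had been pooled before deposit, and no replicate could be left out for the same reason. Depth is unknown, so a missing peak means not detected.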
